A study of Mus musculus with 8 samples.

Results

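Bone is resorbed by osteoclasts, multinucleated cells that form by fusion of precursors of the monocyte lineage. The 6 genes described here encode the extracellular control of that step. Tnfsf11 encodes RANKL, the ligand that drives precursors to become osteoclasts, Tnfrsf11a encodes its receptor RANK, and Tnfrsf11b encodes osteoprotegerin (OPG), a secreted decoy receptor that binds RANKL and keeps it from RANK. Csf1 and Il34 encode the 2 ligands of the receptor CSF1R, encoded by Csf1r, through which precursors survive and multiply. The genes were chosen by name from the 31053 genes of a single-cell RNA matrix of mouse tibia, and all 6 were present in it.

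The cells came from tibiae at 8 weeks of age (postnatal day 56, P56), pooled from 3 mice that carried the alleles Mmp14 F/+, Col10a1-Cre, R26-tdT and Col1a1-2.3-GFP. Cre under Col10a1 control recombines in hypertrophic chondrocytes (HCs) and marks them, with all cells that descend from them, by tdTomato, while the 2.3 fragment of Col1a1 drives GFP in osteoblasts. All mice thus carried 1 floxed Mmp14 allele, which Cre removes in the HC lineage, and no mice without it were compared. Per the methods, pieces of trabecular bone with some growth plate cartilage were digested in sequence, early suspensions rich in blood cells were discarded, and a later one rich in tdTomato+ cells was sequenced, so that the number of cells in a gate is no measure of its abundance in bone. The 8 labelled samples form 1 group and the barcodes bear no mark of sample or mouse, so that the matrix was treated as 1 sample. No statistical test was therefore made between gates. The intervals given are 95% intervals that cover counting error only, and not the variation between mice.

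Levels were compared between 9 gates, sets of cells defined by counts of unique molecular identifiers (UMIs) of marker genes in barcodes with at least 1000 genes. Of 12564 barcodes, 8023 reached that limit, with a median of 6580 UMIs (1615 to 103543), and 3974 of them passed at least 1 gate. The gates held 251 Col2a1 chondrocytes, 80 Col10a1/Ihh chondrocytes, 200 Prg4/Cilp chondrocytes, 56 Bglap osteoblasts, 26 Cxcl12 stroma cells, 172 Dcn/Col3a1 cells, 2594 Cd79a cells of the B lineage, 898 Ccr2 cells of the monocyte lineage and 25 Acp5/Ctsk cells of the osteoclast lineage. Each label was checked with 5 to 9 markers that had no part in its gate, and in every gate all or all but 1 of them lay more than 2-fold above the rest of the kept cells. The exception in the Acp5/Ctsk cells was Calcr, the calcitonin receptor, with 0 UMIs. Markers of other labels were also raised. In Dcn/Col3a1 cells 9 of 10 osteoblast markers lay more than 2-fold above the rest, with a summed level of 38200 counts per 1000000 UMIs (CPM) against 17187 for the markers of fibroblasts and tendon. In Col10a1/Ihh chondrocytes the articular markers summed to 27780 CPM and the hypertrophic markers to 15626. In Col2a1 chondrocytes all 10 osteoblast markers lay more than 2-fold above the rest. In Bglap osteoblasts 8 of 9 growth plate markers did, with a summed level of 36774 CPM against 113061 for the osteoblast markers. Of the 56 cells of that gate, 16 held fewer than 20 Col1a1 UMIs, and Col2a1 stood there at 58513 CPM. In Prg4/Cilp chondrocytes 7 of 8 markers of fibroblasts and tendon were raised by more than 2-fold. The gates overlap, since 288 cells passed more than 1, and a level in a gate therefore describes a mixture where that is stated. As a measure of free RNA, the same genes were counted in 1812 neutrophils outside the gates. This count also holds any RNA of these genes that neutrophils themselves make.

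Promoter sequences, from 250 bases before to 50 bases after the start of the gene, were held for 3 of the 6 genes in the RefSeq table (GRCm38.p6). They are shown because the levels of these genes were highest in the gates that the results turn on, Tnfsf11 and Csf1 in the Cxcl12 stroma and Tnfrsf11a in the Acp5/Ctsk cells. Capitals mark matches, on either strand, to 8 motifs. The TATA box was searched as TATAAA, and the CCAAT box by the letters in its name. The GC box was searched as GGGCGG, bound by Sp1 and related factors. The RUNX site was searched as TGTGGT, and the AP-1 site as TGANTCA. The core of the EBF site was searched as CCCNNGGG. The forkhead site was searched as GTAAACA, and the ETS site as GAGGAA. The sequences read 5′ to 3′ on the strand of the gene.
Tnfsf11 (chr14:78307994-78308293, minus strand): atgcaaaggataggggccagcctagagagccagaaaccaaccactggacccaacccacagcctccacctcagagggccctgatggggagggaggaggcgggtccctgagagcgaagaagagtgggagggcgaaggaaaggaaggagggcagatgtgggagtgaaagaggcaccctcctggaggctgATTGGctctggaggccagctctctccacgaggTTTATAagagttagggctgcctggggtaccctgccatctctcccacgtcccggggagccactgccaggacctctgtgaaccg
Csf1 (chr3:107760420-107760719, minus strand): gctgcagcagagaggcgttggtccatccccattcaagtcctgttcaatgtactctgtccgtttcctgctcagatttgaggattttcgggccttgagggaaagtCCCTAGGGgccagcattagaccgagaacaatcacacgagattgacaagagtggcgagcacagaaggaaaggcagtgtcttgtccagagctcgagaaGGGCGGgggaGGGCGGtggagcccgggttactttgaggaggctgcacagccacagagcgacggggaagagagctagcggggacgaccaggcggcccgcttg
Tnfrsf11a (chr1:105780473-105780772, plus strand): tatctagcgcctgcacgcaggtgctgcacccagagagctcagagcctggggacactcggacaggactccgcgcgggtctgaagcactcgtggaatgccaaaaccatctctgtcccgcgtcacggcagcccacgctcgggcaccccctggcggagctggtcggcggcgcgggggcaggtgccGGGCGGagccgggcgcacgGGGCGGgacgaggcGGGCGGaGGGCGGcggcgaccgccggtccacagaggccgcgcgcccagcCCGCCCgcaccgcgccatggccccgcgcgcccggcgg

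The Tnfsf11 window held a TATA box at bases 219 to 224 and a CCAAT box at bases 187 to 191, both on the strand opposite to the gene. The Csf1 window held 2 GC boxes and the EBF core, and the Tnfrsf11a window held 5 GC boxes. No match overlapped another. Of 32851 promoters of the same length, 13.6% held the TATA box, 37.4% the CCAAT box, 35.7% the GC box and 13.7% the EBF core. The other 4 motifs, with no match in the 3 windows, were held by 16.8% (RUNX), 7.81% (AP-1), 3.65% (forkhead) and 28.3% (ETS) of promoters. The GC content was 61.7% for Tnfsf11, 58.7% for Csf1 and 76.7% for Tnfrsf11a.

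Tnfsf11 (RANKL) was sparse. The matrix held 85 of its UMIs, all in barcodes that reached 1000 genes, and 29 of them lay in the 26 Cxcl12 stroma cells. The gate asks for the chemokine Cxcl12 with Lepr or Adipoq, which mark the reticular cells that line marrow vessels and feed blood cell formation. Levels are given in CPM of the gate. The level was 130.7 CPM there (87.5 to 188), against 4.72 (1.90 to 9.73) in Bglap osteoblasts and 2.62 (0.960 to 5.69) in Dcn/Col3a1 cells. The level was between 0.571 and 1.52 CPM in the 3 chondrocyte gates and in the Cd79a and Ccr2 cells. No UMI was found in the 25 Acp5/Ctsk cells, which allows up to 4.67 CPM. Below the stroma, the intervals of Bglap osteoblasts and Dcn/Col3a1 cells overlapped each other and those of the chondrocyte gates, while that of Bglap osteoblasts lay above that of Ccr2 cells (0.210 to 1.24). With shared cells left out, the log2 ratio of Bglap osteoblasts to Col2a1 chondrocytes was 4.08 (1.28 to 7.55), from 4 and 2 UMIs, and 3 of the 4 lay in 1 cell that also passed the Cd79a gate. Neutrophils held 1 UMI in 1812 cells. Of the 85 UMIs, Cd79a cells held 24. A further 9 lay in 652 T or NK cells (Cd3e, Cd3d, Nkg7 or Trac) outside the gates, at 0.933 CPM (0.427 to 1.77).

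Among the Cxcl12 stroma cells, 13 of 26 held a Tnfsf11 UMI. The counts in those 13 cells ran from 1 to 6 with a median of 1, and 8 of them held a single UMI. No cell decided the level, since the highest held 20.7% of the UMIs. The share of cells with a UMI was 50% (29.9 to 70.1, Clopper-Pearson). With each cell thinned to 3000 UMIs, which left out 1 shallower stroma cell, the share was 29.6% in stroma, 2.45% in Bglap osteoblasts and 0.0206% in neutrophils.

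Stroma and osteoblasts are both described as sources of RANKL. The stroma level was 27.7 times the osteoblast level, a log2 ratio of 4.79 (3.57 to 6.23), and no cell lay in both gates. Of the 6998 genes with at least 20 UMIs in this pair, 28.9% were at least 2-fold higher in the stroma, so that the direction alone was common. Tnfsf11 reached this minimum through its 29 stroma UMIs. At a minimum of 50 UMIs, which Tnfsf11 with 36 UMIs did not reach, the share was 21.7% of 3859 genes. The 7 osteoblast UMIs came from 4 of 56 cells, and 3 of the 7 from 1 cell. The Bglap gate holds 26 cells that also passed a chondrocyte gate. In the other 30 Bglap cells the level was 7.17 CPM (1.95 to 18.4), from 4 UMIs in 2 cells. Of these, 3 lay in 1 cell at 280.4 CPM that also passed the Cd79a gate, and the 21 cells of the Bglap gate alone held 1 UMI, or 2.60 CPM (0.0658 to 14.5). Dcn/Col3a1 cells lay 62.2-fold below the stroma, a log2 ratio of -5.96 (-7.69 to -4.57).

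**Figure D1:**
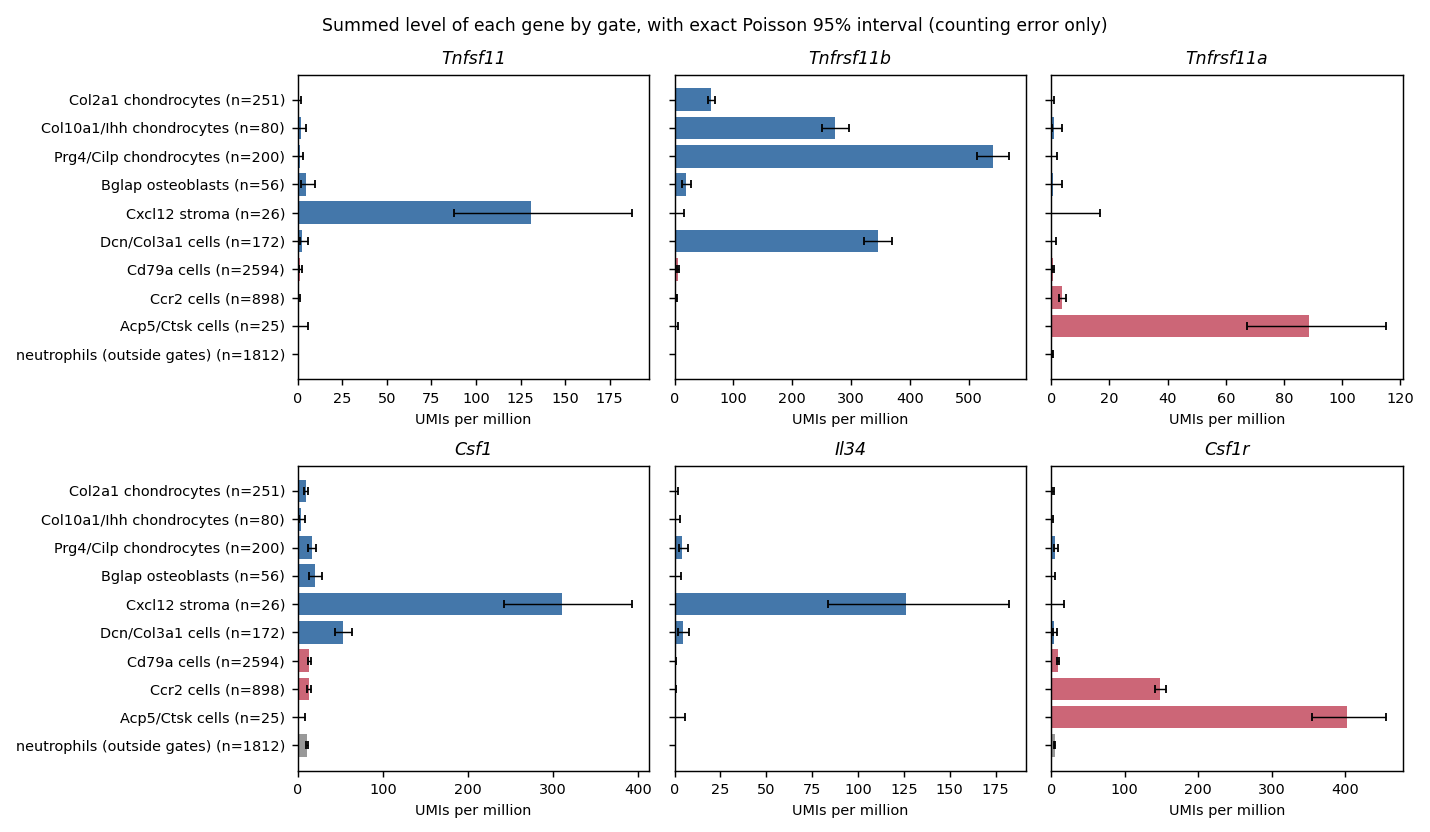
Level of each gene, in CPM summed over the cells of a gate, with the exact Poisson 95% interval as a line. Each panel has its own linear axis from 0. Blue bars are gates of cartilage, bone and stroma, red bars are blood and osteoclast gates and grey bars are neutrophils outside the gates. Tnfsf11, Csf1 and Il34 had their longest bars in the Cxcl12 stroma (130.7, 310.9 and 126.2), Tnfrsf11b in the Prg4/Cilp chondrocytes (540.8), and Tnfrsf11a and Csf1r in the Acp5/Ctsk cells (88.7 and 403.3).

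Among the 9 gates, Csf1 was highest in the same one. Its level was 310.9 CPM in the Cxcl12 stroma (242 to 393), from 69 UMIs in 21 of 26 cells. Dcn/Col3a1 cells followed with 53.2 (44.1 to 63.5), and the interval of neither touched that of another gate. Bglap osteoblasts (20.2, 13.7 to 28.9), Prg4/Cilp chondrocytes (16.1), Cd79a cells (13.5) and Ccr2 cells (12.9) had overlapping intervals. Col2a1 chondrocytes held 9.31 and Col10a1/Ihh chondrocytes 4.04 CPM, which did not exceed the 10.6 (9.20 to 12.2) of neutrophils. The intervals of Prg4/Cilp (11.7 to 21.5), Cd79a (11.8 to 15.4) and Ccr2 cells (10.8 to 15.2) also overlapped that of neutrophils. They lay above that of erythroid cells (5.66, 4.15 to 7.55), so that the reading depends on the cells taken as background. Single neutrophils held up to 8 Csf1 UMIs, and the part of free RNA in the neutrophil level was not tested. Acp5/Ctsk cells held 1 UMI in 25 cells, or 1.56 CPM. Outside the 9 gates, 85 endothelial cells (Pecam1, Cdh5 or Emcn) had 41.9 CPM (30.1 to 56.8), and 47 cells with the vessel-wall genes Acta2 and Mcam, a set chosen after the values had been seen, had 74.1 (48.4 to 109).

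The counts per stroma cell ran from 0 to 8 with a median of 2.5, and the highest cell held 11.6% of the UMIs. Against Bglap osteoblasts the log2 ratio was 3.94 (3.30 to 4.61), or 15.4-fold, in a pair where 21.7% of genes were at least 2-fold higher in stroma. Csf1 reached the minimum of 50 UMIs through the stroma. It was 3.19 (9.13-fold) against the Bglap cells outside the chondrocyte gates and 4.73 (26.6-fold) with the gate limits doubled. Against Dcn/Col3a1 cells it was -2.59 (-3.05 to -2.13), read as Dcn/Col3a1 over stroma. That difference moved with the overlap of gates. The 59 cells of the Dcn/Col3a1 gate that passed no other gate held 123.2 CPM (95.2 to 157), and the log2 ratio over cells of 1 gate only was -1.36. The 82 cells that also passed the Prg4/Cilp gate held 27.0 (18.4 to 38.4).

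Il34, the alternative ligand of CSF1R, was known from 62 UMIs. The stroma held 28 of them in 15 of 26 cells, a level of 126.2 CPM (83.8 to 182). Dcn/Col3a1 cells (4.36) and Prg4/Cilp chondrocytes (4.29) followed, with overlapping intervals, and the other 6 gates lay at or below 0.878. Neutrophils held 0 UMIs in 1812 cells. The log2 ratio of Dcn/Col3a1 cells over stroma was -5.17 (-6.53 to -3.99), with 8 against 26 UMIs after 2 shared cells were left out. With 20 UMIs as the minimum, 20.5% of 8804 genes were at least 2-fold higher in stroma than in Dcn/Col3a1 cells. Tnfsf11 and Il34 reached that minimum through their stroma UMIs, so that their place among these genes was set by the minimum. Bglap osteoblasts held 1 Il34 UMI, so that their ratio to stroma spans 4.95 to 12.9 on the log2 scale. All 12 UMIs outside the 9 gates lay in 47 cells with at least 3 UMIs of Acta2 and Mcam, genes of vessel-wall cells, at 34.2 CPM (17.7 to 59.7). That set was chosen after the values had been seen, and 1 of its cells, with 4 of the UMIs, also passed the limit for T or NK cells.

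Detection of the 3 ligands in single stroma cells was compared with the product of their separate shares. Tnfsf11 and Csf1 were both detected in 11 of 26 cells, Csf1 and Il34 in 13, and Tnfsf11 and Il34 in 7. The products of the separate shares give 10.5, 12.1 and 7.5 cells, within 1 cell of these counts. All 7 cells with Tnfsf11 and Il34 also held Csf1, and 1 cell held none of the ligands. The cells with both Tnfsf11 and Csf1 had a median of 8570 UMIs, against 6899 for the others, and the part of this depth in the overlap was not tested. Markers of endothelial cells were also higher in this gate than in the rest of the kept cells. All 6 were more than 2-fold higher, with a summed level of 756.9 against 60.2 CPM, and their part in the ligand levels was not tested. In the endothelial cells themselves Il34 was not detected and Tnfsf11 had 1 UMI.

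**Figure D2:**
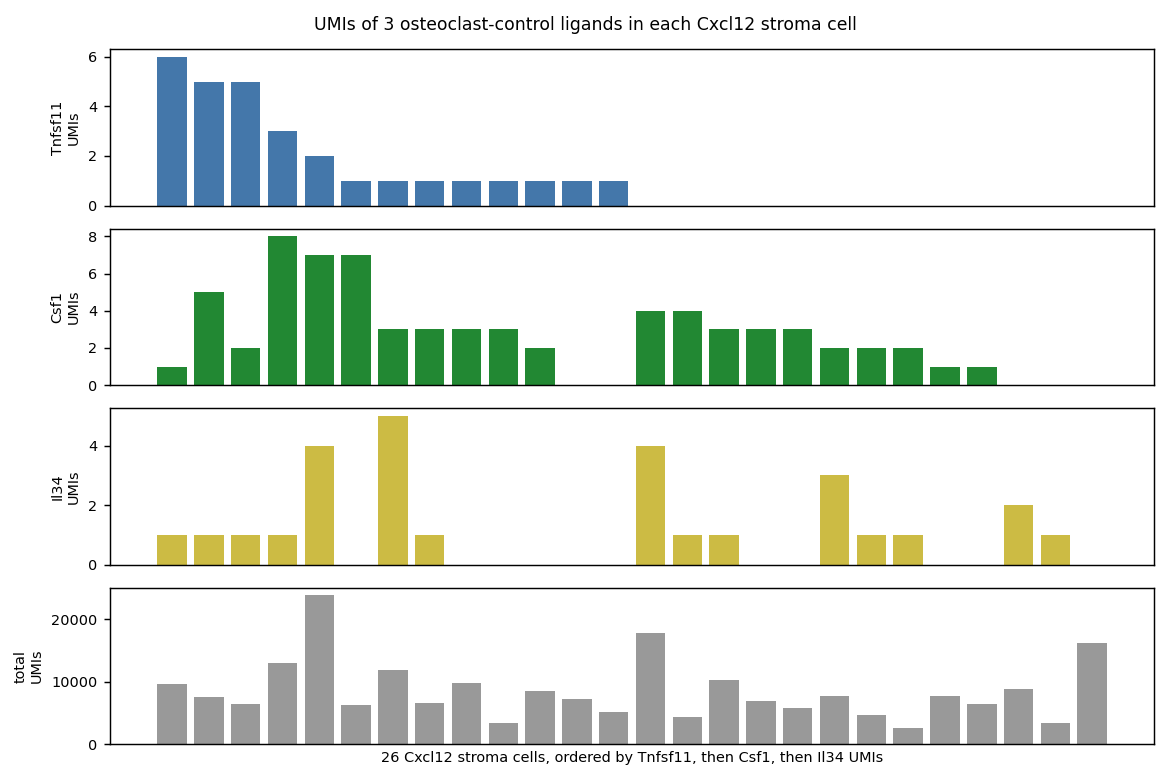
UMIs of Tnfsf11, Csf1 and Il34 and the total UMIs (vertical axes, linear from 0) in each of the 26 Cxcl12 stroma cells, which run along the horizontal axis in order of Tnfsf11, then Csf1, then Il34. Tnfsf11 reached 6 UMIs and was seen in 13 cells, Csf1 reached 8 and was seen in 21, and Il34 reached 5 and was seen in 15.

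Tnfrsf11b (OPG) had another distribution. The stroma that was highest for the 3 ligands held none of its UMIs, and cartilage held most. Prg4/Cilp chondrocytes, the gate of articular cartilage with the lubricant gene Prg4, held 540.8 CPM (514 to 569), from 1513 UMIs in 139 of 200 cells. The counts per cell ran from 0 to 135 with a median of 3. Dcn/Col3a1 cells held 345.6 (322 to 370), Col10a1/Ihh chondrocytes 273.2 (251 to 297), Col2a1 chondrocytes 62.4 (56 to 69.2) and Bglap osteoblasts 18.9 (12.6 to 27.3). The intervals of these 5 gates did not overlap. Cd79a and Ccr2 cells held 5.56 and 2.86 CPM, and neutrophils 0.216. The Cxcl12 stroma held 0 of 221948 UMIs, which allows up to 13.5 CPM, and 0 of 26 cells held a UMI. The Clopper-Pearson interval of that share ends at 13.2%, which limits the cells with a UMI at this depth and not the cells that express the gene. The exact interval of the log2 ratio of stroma to Bglap osteoblasts ended at -0.088, and that of Dcn/Col3a1 cells to stroma began at 4.27. Acp5/Ctsk cells held 0 UMIs, with up to 4.67 CPM allowed.

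The high levels followed the Prg4/Cilp gate. The Col10a1/Ihh gate fell into 35 cells that also passed the Prg4/Cilp gate and 45 that did not. The 35 cells held 895 CPM (815 to 981), with a UMI in 33 of them and a median of 9 UMIs per cell. The 45 cells held 59.1 (47.3 to 72.9), with a UMI in 18, although their median depth was greater (32455 against 12856 UMIs). The 195 Col2a1 chondrocytes outside both gates held 62.8 (55.2 to 71.2), an interval that overlapped that of the 45 cells. In the same way, the 82 Dcn/Col3a1 cells inside the Prg4/Cilp gate held 637.7 CPM (592 to 686) and the 90 outside held 54.0 (41.4 to 69.2). A single cell gave 38.7% of the UMIs of those 90.

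**Figure D3:**
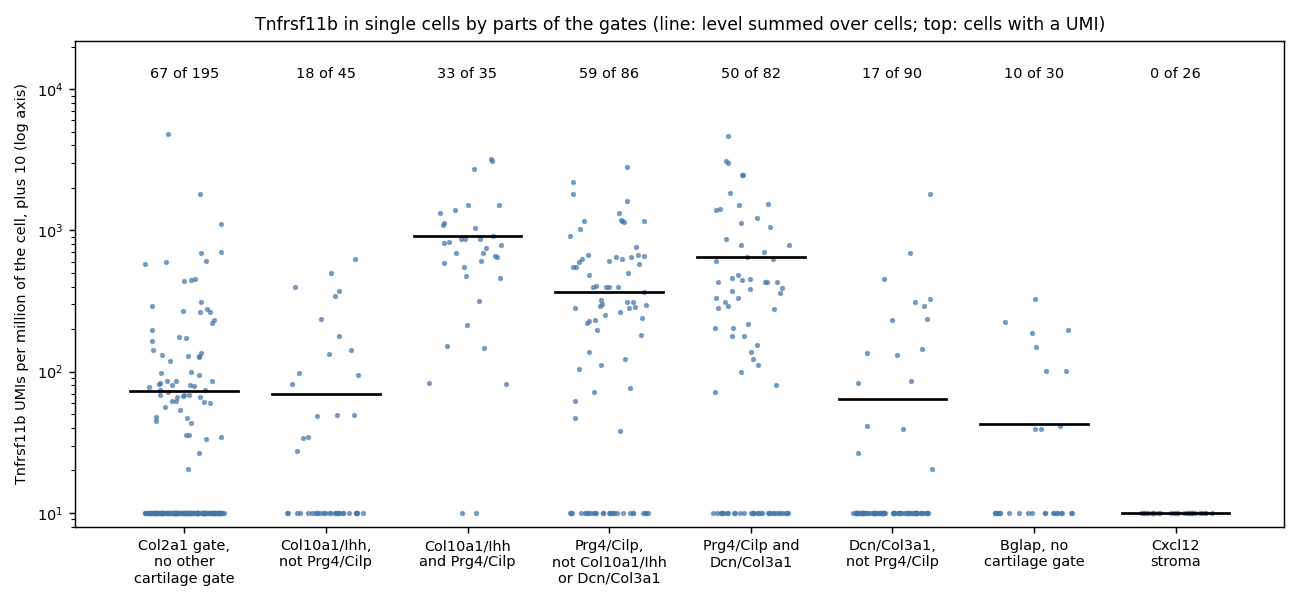
Tnfrsf11b in single cells, in UMIs per 1000000 UMIs of the cell plus 10 (log axis), by parts of the gates. Points are cells, black lines the level summed over the cells plus 10, and the numbers at the top the cells with a UMI. The 3 parts that lie in the Prg4/Cilp gate had summed levels of 895, 355.1 and 637.7, and the other parts of 62.8 or less.

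The comparison of Prg4/Cilp with Col2a1 chondrocytes gave a log2 ratio of 3.28 (3.1 to 3.45), or 9.68-fold, with 1492 and 334 UMIs. In this pair 10.6% of 8837 genes were at least 2-fold higher in Prg4/Cilp chondrocytes. The ratio of Col10a1/Ihh to Col2a1 chondrocytes was 3.75 (3.53 to 3.97) once the 44 shared cells were left out, in a pair where 7.62% of 7283 genes were at least 2-fold higher in Col10a1/Ihh chondrocytes. That value described Prg4 cells, since nearly all of the 36 cells it rests on lay in the Prg4/Cilp gate. With Col10a1/Ihh cells outside the Prg4/Cilp gate it was -0.095. Bglap osteoblasts lay 2.05-fold below Col2a1 chondrocytes, a log2 ratio of -1.04 (-1.77 to -0.39). There 23.9% of 7580 genes were at least 2-fold higher in Col2a1 chondrocytes, and 6.39% were at least 2-fold higher in Bglap osteoblasts. Csf1, which reached the minimum through the osteoblasts, had a log2 ratio of 1.93 (1.07 to 2.75) from 19 and 42 UMIs. It fell to 0.18 with the gate limits doubled.

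Thinned to 3000 UMIs, the share of cells with a Tnfrsf11b UMI was 51.8% in Prg4/Cilp, 42.7% in Col10a1/Ihh, 25.9% in Dcn/Col3a1 and 13.7% in Col2a1 cells. It was 8.84% in Bglap osteoblasts and 0.0407% in neutrophils. The order of the unthinned shares was the same, with 69.5%, 63.7%, 39.0%, 35.9% and 30.4% in those 5 gates. Of the 93 UMIs in Cd79a cells, 87 lay in 41 cells that also passed a gate of cartilage, bone or stroma. The other 2553 Cd79a cells held 6 UMIs, or 0.377 CPM.

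The balance of ligand and decoy was read as the share of Tnfsf11 in the UMIs of the pair, a measure that is compared between gates and not as a ratio of molecules. It was 29 of 29 UMIs in Cxcl12 stroma (88.1% to 100%, Clopper-Pearson). In Bglap osteoblasts it was 20% of 35 UMIs (8.44 to 36.9). It was 1.39% of 360 in Col2a1, 0.551% of 544 in Col10a1/Ihh and 0.198% of 1516 in Prg4/Cilp chondrocytes, and 0.751% of 799 in Dcn/Col3a1 cells. The stroma and osteoblast intervals did not overlap each other or those of these 4 gates. The intervals of Cd79a cells (20.5%, 13.6 to 29.0) and Ccr2 cells (16.7%, 6.37 to 32.8) overlapped that of osteoblasts, but these shares were set by cells in several gates. In Cd79a cells outside the gates of cartilage, bone and stroma the share was 73.9% of 23 UMIs (51.6 to 89.8). That interval lay above that of osteoblasts and overlapped that of stroma. In Ccr2 cells that passed no other gate the share was 75% of 8 UMIs (34.9 to 96.8), which also overlapped stroma, with 5 of the 6 Tnfsf11 UMIs in 1 cell. In Bglap cells outside the chondrocyte gates it was 18.2% (5.19 to 40.3), which overlapped the 4.62% (0.962 to 12.9) of Dcn/Col3a1 cells outside the Prg4/Cilp gate. In the 40 Bglap cells with at least 20 Col1a1 UMIs it was 14.3% of 28 UMIs (4.03 to 32.7). In the 21 Bglap cells that passed no other gate it was 8.33% of 12 UMIs (0.211 to 38.5). T or NK cells outside the gates held 9 Tnfsf11 UMIs and 1 Tnfrsf11b UMI.

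The receptors were highest in other gates than the ligands. Tnfrsf11a (RANK) was at 88.7 CPM in Acp5/Ctsk cells (67.2 to 115), with 57 UMIs in 21 of 25 cells. The counts per cell ran from 0 to 7 with a median of 2. The next gate was Ccr2 cells with 3.72 (2.64 to 5.08), 39 UMIs in 32 of 898 cells. The 7 other gates lay at or below 1.01, with intervals that overlapped. Outside the gates, 63 cells with complement C1q genes, which mark macrophages, held 31.6 CPM (18.4 to 50.5). Neutrophils held 0.270. Thinned to 3000 UMIs, the share of cells with a Tnfrsf11a UMI was 22.5% in Acp5/Ctsk cells, 1.16% in Ccr2 cells and 0.0541% in neutrophils.

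Acp5/Ctsk cells exceeded Ccr2 cells in Tnfrsf11a by a log2 ratio of 4.64 (4.02 to 5.28), or 25-fold. In this pair 12.0% of 9229 genes were at least 2-fold higher in Acp5/Ctsk cells and 24.4% at least 2-fold higher in Ccr2 cells. Tnfrsf11a, with 56 UMIs in Acp5/Ctsk and 38 in Ccr2 cells, reached the minimum for these genes through the Acp5/Ctsk cells. Its place among them was therefore set by the minimum. The ratio lay between 4.51 and 4.94 under 8 alternatives.

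Csf1r was more widely held. Acp5/Ctsk cells had 403.3 CPM (356 to 456), with 259 UMIs in 24 of 25 cells and a range per cell of 0 to 41 with a median of 7. Ccr2 cells had 148.1 (141 to 156), with a UMI in 595 of 898 cells. The C1q cells outside the gates were highest, with 601.7 CPM (538 to 671) in 58 of 63 cells. Cd79a cells held 9.03 (7.65 to 10.6), which fell to 3.17 (2.34 to 4.21) in the 2499 of them that passed no other gate. The other gates held 5.72 or less. Neutrophils held 4.59 (3.67 to 5.67), an interval that overlapped those of Prg4/Cilp (5.72, 3.27 to 9.29) and Dcn/Col3a1 cells (3.92, 1.79 to 7.45). Erythroid cells held 1.72 (0.942 to 2.89), below the Prg4/Cilp interval, so that the reading depends on the cells taken as background. The Cxcl12 stroma and the Col10a1/Ihh chondrocytes held 0 UMIs, which allows up to 13.5 and 1.52 CPM. Csf1r belongs to the monocyte markers used to check the Ccr2 gate, although no gate was defined by it.

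The log2 ratio of Acp5/Ctsk to Ccr2 cells for Csf1r was 1.48 (1.29 to 1.68), or 2.80-fold. With each cell given the same weight it was 1.15. Csf1 itself went the other way, at a log2 ratio of -2.99 (-8.31 to -0.49) with 1 against 135 UMIs.

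The 2 receptors were both detected in 21 of 25 Acp5/Ctsk cells, and in 27 of 898 Ccr2 cells, where the products of their separate shares give 20.2 and 21.2 cells. The Acp5/Ctsk cells were not uniform. The 13 cells with at least 20 UMIs of Ctsk, the collagen-degrading protease of osteoclasts, held 556.3 CPM of Csf1r (484 to 637) and 108.1 of Tnfrsf11a (77.6 to 147). The 12 cells with fewer held 182.5 (135 to 242) and 60.8 (34.8 to 98.8). The Csf1r intervals were apart and those of Tnfrsf11a overlapped. This division was chosen after the cells had been seen, and Ctsk is one of the genes of the gate.

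**Figure D4:**
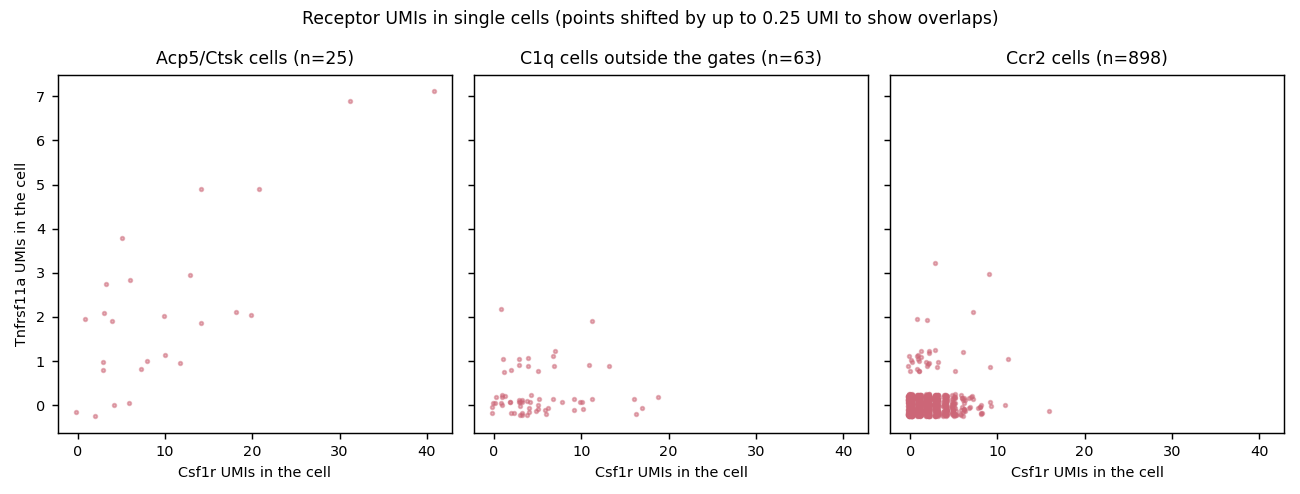
UMIs of Csf1r (horizontal axis) and Tnfrsf11a (vertical axis) in single cells, with points shifted by up to 0.25 UMI. The 25 Acp5/Ctsk cells reached 41 and 7 UMIs, the 63 C1q cells outside the gates 19 and 2, and the 898 Ccr2 cells 16 and 3.

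The HC lineage was read from WPRE, a viral element at the end of the tdTomato transcript, with more than 14 UMIs as the threshold of the study. In the Cxcl12 stroma 10 of 26 cells passed it. Tnfsf11 was at 131.4 CPM in these and 130.1 in the other 16, a log2 ratio of 0.01 with an interval of -1.16 to 1.16. Csf1 (-0.41, -1.17 to 0.32) and Il34 (-0.31, -1.55 to 0.86) also had intervals that included 0. With more than 4 WPRE UMIs as the limit, which 15 cells passed, Csf1 was lower in the HC lineage by a log2 ratio of -1.07 (-1.81 to -0.35). The intervals at the threshold of the study are wide, and a difference of 2-fold was not excluded for any of the 3. In Bglap osteoblasts, 17 cells of the HC lineage held 13 Csf1 UMIs and 39 other cells 17, a log2 ratio of 1.00 (-0.16 to 2.13). It was 0.37 (-0.78 to 1.5) with more than 9 WPRE UMIs as the limit and 0.16 (-0.99 to 1.37) with more than 4.

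For Tnfrsf11b the lineage marker moved with the gate. In Prg4/Cilp chondrocytes, 30 cells with more than 14 WPRE UMIs held 957.3 CPM and the other 170 held 457.6, a log2 ratio of 1.07 (0.90 to 1.23). Of these 30 cells 24 also passed the Col10a1/Ihh gate. Within the 35 cells of both gates the ratio was 0.21 (-0.10 to 0.53). In the 45 Col10a1/Ihh cells outside the Prg4/Cilp gate it was 1.30 (0.61 to 2.02), from 61 and 26 UMIs.

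Other genes of the pathway were taken from 7 lists. Acp5/Ctsk cells were compared with Ccr2 cells. Of 13 osteoclast effector genes, 11 reached 50 UMIs. Acp5 and Ctsk define the gate, and others reached the limit through it, namely Atp6v0d2, Dcstamp and Ocstamp, so that no count or median over the list is given and their levels are a description. Atp6v0d2, a subunit of the proton pump, was at 763 against 0.191 CPM (471 and 2 UMIs), and the fusion genes Dcstamp and Ocstamp at 154 and 125 against 4.49 and 4.30. Mmp9, a matrix protease with 482 UMIs in Ccr2 cells, was at 3645 against 46.0. In the list of RANK signalling, 3 of 17 genes were higher and 5 lower, near the 12.0% and 24.4% of all genes. The median log2 ratio was 0.27 against -0.19 over all 9229 genes. Nfatc1, the transcription factor that drives osteoclast genes, was higher with a log2 ratio of 3.40, as were the transcription factor genes Mitf with 3.56 and Spi1 with 1.11. The 5 lower genes were Map3k14 (-2.88), which encodes the kinase NIK of the noncanonical NF-κB pathway, Jun (-2.09), the adaptor Gab2 (-1.32), the NF-κB subunit Rel (-1.27) and Mapk14 (-1.20), which encodes a p38 kinase. Of 5 inhibitors of osteoclast formation tested, 4 were lower, including Irf8 (-2.83) and Bcl6 (-2.11), and Id2 was higher (1.71).

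In the stroma, receptors and signal transducers that act upstream of Tnfsf11 transcription were compared with Bglap osteoblasts. Of 11 genes 6 were tested, 4 were at least 2-fold higher in stroma, where 21.7% of all genes were, and 1 was at least 2-fold lower, as were 13.5% of all genes. Of the 4, Il1r1 reached the minimum of 50 UMIs through the stroma. Endothelial markers moved with this list, with a summed level of 756.9 CPM in stroma and 7.42 in osteoblasts, and their part in it was not tested. Il1r1, the interleukin-1 receptor, stood at 162 against 15.5 CPM, Il6st, the shared receptor chain gp130, at 374 against 55.3, Lifr at 838 against 222, and Tnfrsf1a at 212 against 47.2. Pth1r, the receptor for parathyroid hormone, was lower in the stroma, with 176 against 1133. The osteoblast level was 1558 CPM in the 26 Bglap cells that also passed a chondrocyte gate and 428 in the other 30. Against Dcn/Col3a1 cells, 4 of 7 tested genes of this list were at least 2-fold higher in stroma and 1 was lower, beside 15.2% and 15% of all 5609 genes at the minimum of 50 UMIs. The endothelial markers summed to 6.10 CPM in Dcn/Col3a1 cells. Sfrp1, a secreted inhibitor of Wnt signalling and of osteoclast formation, was at 180 CPM in stroma and 14.5 in Dcn/Col3a1 cells. It was the 1 of 4 tested inhibitors past 2-fold in this pair, and it reached the minimum of 50 UMIs through the stroma.

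Prg4/Cilp chondrocytes held at least 2-fold more than Col2a1 chondrocytes of 5 of 5 tested inhibitors and of 4 of 4 tested genes of the ITAM co-receptor list, which carry the costimulatory signal in myeloid cells. In this pair 10.6% of all genes were at least 2-fold higher. Of the 5 inhibitors, Lgals9 reached the minimum of 50 UMIs through the Prg4/Cilp cells. The ITAM genes Tyrobp (158 against 57.9 CPM) and Fcer1g (110 against 43.3) are myeloid genes, and blood markers moved with them. The summed neutrophil markers were at 13419 CPM in Prg4/Cilp and 6399 in Col2a1 cells, erythroid markers at 18063 and 7414, macrophage markers at 74.0 and 6.5, and T or NK markers at 72.6 and 20 CPM. A Ptprc UMI, of the leukocyte antigen CD45, was held by 18.5% and 17.9% of cells. Markers of fibroblasts and tendon also moved, at 10720 and 1057 CPM, and 82 of the 200 Prg4/Cilp cells passed the Dcn/Col3a1 gate. The part of blood RNA or of those 82 cells in these values was not tested. Tnfrsf11b was the 1 of 3 tested ligand genes past 2-fold in this pair.

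Proteins other than CSF1R are also described as receptors of IL-34. Ptprz1, a receptor phosphatase, was highest in Bglap osteoblasts at 71.5 CPM, 5.29 times the next gate, the Cxcl12 stroma at 13.5. Sdc1, the proteoglycan syndecan-1, was at 144.2 CPM in the stroma and 76.3 in Acp5/Ctsk cells. Kit, the receptor for stem cell factor, was at 76.6 CPM in the stroma, 6.59 times the next gate. Csf3 and Flt3, genes of the granulocyte and dendritic lines, were highest in Ccr2 cells, at 11.8 and 22.1 CPM.

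**Figure D5:**
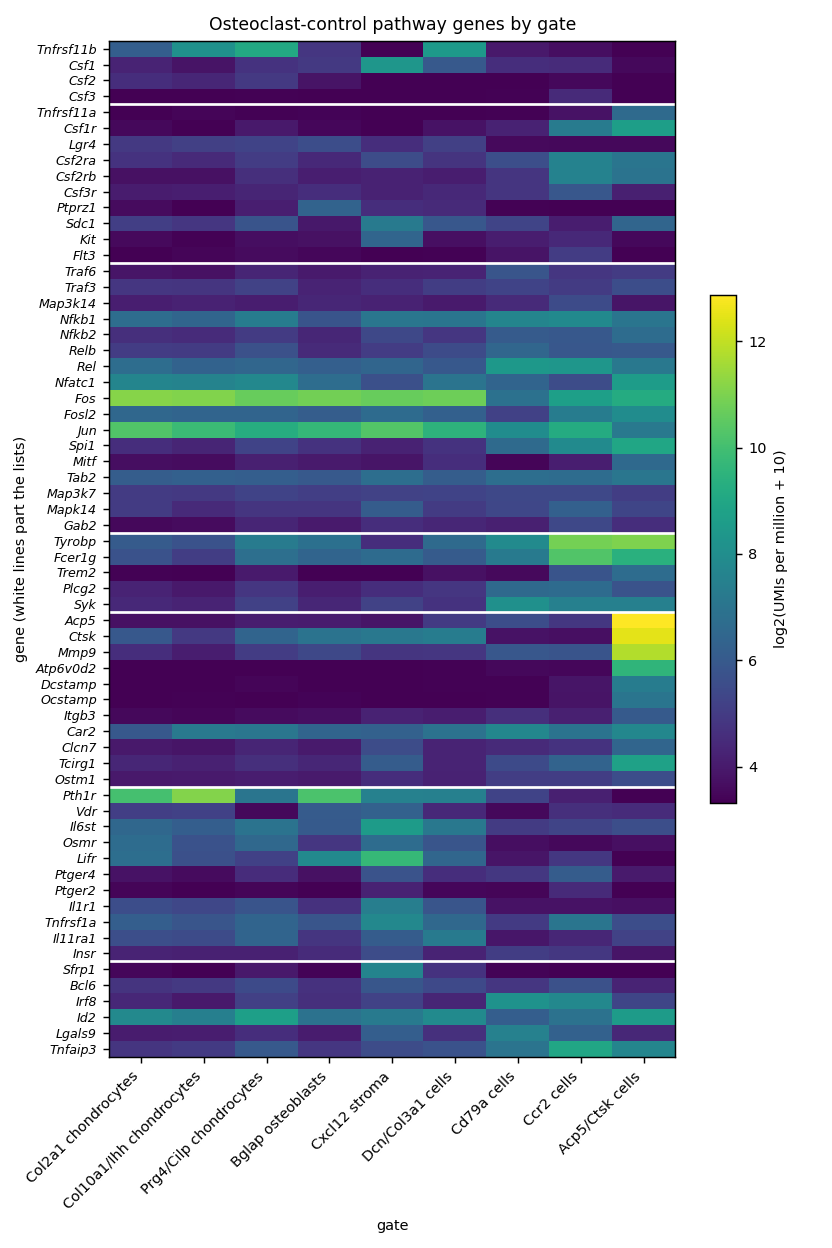
Level of the pathway genes with at least 100 UMIs in the 9 gates, as log2(CPM + 10), with gates along the horizontal axis and genes along the vertical axis, parted into the lists by white lines. Dcstamp, Ocstamp and Atp6v0d2 stand out in the Acp5/Ctsk cells and Sfrp1 and Kit in the Cxcl12 stroma. Tnfsf11 and Il34 had fewer than 100 UMIs and are not drawn.

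The genes whose profile over the 9 gates was most like each member were found by Pearson r of log2(CPM + 10). The 9 points come from 1 pool and share cells, and r is a description. Tnfrsf11b was most like Clec3a, a cartilage lectin (r = 0.997), Ppp1r14a (0.988) and Hr (0.988). Tnfrsf11a was most like Ocstamp (1.00), Dcstamp (0.998) and Shtn1 (0.996). Csf1 was most like Pdlim2 (0.988), Cxcl12 (0.988) and Esr1 (0.974), the estrogen receptor. Cxcl12 defines the stroma gate and its likeness is no finding. Il34 was most like Tmem140 (0.994), Ebf3 (0.993), a transcription factor of reticular stroma, and Ggt5 (0.992). Tnfsf11 was most like Esm1 (0.994), Zdhhc5 (0.993) and Pou6f1 (0.991), and Csf1r most like Pik3r5 (0.997), Bcl2a1a (0.995) and Ccr1 (0.995). For Tnfsf11, 0 of the 3 genes were shared with a pseudocount of 1 in place of 10. For Tnfrsf11b 2 were shared (Clec3a and Ppp1r14a), and for each other member 1 (Ocstamp, Tmem140, Pik3r5 and, for Csf1, the gate gene Cxcl12).

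In the annotation GENCODE M21 of GRCm38, the assembly of mm10, Tnfsf11 lies on chromosome 14 from 78277445 to 78308043 (minus strand) and Tnfrsf11b on chromosome 15 from 54250619 to 54278484 (minus strand). Tnfrsf11a lies on chromosome 1 from 105780718 to 105847981 (plus strand), Csf1 on chromosome 3 from 107741048 to 107760469 (minus strand) and Il34 on chromosome 8 from 110741829 to 110805924 (minus strand). No other annotated gene overlaps the first 4. Il34 overlaps Gm15894 and Gm15895 on the opposite strand, and Csf1r overlaps Mir6983 and, on the opposite strand, Hmgxb3. The use of strand in counting is not stated in the labels or methods, so that Il34 and Csf1r counts could include reads of these genes.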

How the data were processed

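Tibial cells of P56 mice were captured on the 10x Genomics platform. The deposited values are raw UMI counts per gene and barcode that the authors made with Cell Ranger 3.1.0 from an alignment to mm10 and to exogenous sequences, among them WPRE. Seurat 3 is also named in the submitters' processing notes. The study describes removal of cells rich in mitochondrial or ribosomal RNA, but no such limit was applied here. The 6 genes, the gates and the gene lists were chosen with earlier results of these data known. No sample's columns were left unused. In the list of inhibitors of osteoclast formation, 1 gene is not reported here.

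Counts were summed over the cells of a gate and expressed per 1000000 UMIs of the gate (CPM) with the exact Poisson interval, and shares of cells were given Clopper-Pearson intervals at 95%. A count of 0 was read as allowing up to 3 UMIs. Ratios left out cells in both gates and took an exact conditional interval. A gene was called past 2-fold with at least 50 UMIs in the pair (20 as alternative). Shares were also thinned to 3000 UMIs a cell over 100 draws. The gates were Col2a1 at least 10 with Prg4 at most 1, Col10a1 plus Ihh at least 5, Prg4 plus Cilp at least 2 with Acan at least 1, Bglap at least 20, Cxcl12 at least 20 with Lepr plus Adipoq at least 2, Dcn and Col3a1 each at least 3, Cd79a at least 3, Ccr2 at least 1, and Acp5 plus Ctsk at least 20 UMIs. Neutrophils had at least 50 UMIs of Ltf, Camp and Ngp. Pathway genes were named where 1 gate held at least 4 times any other with 100 UMIs in all, or where they passed 2-fold in a comparison. Scrublet called 273 of 8023 cells (3.40%) as doublets, 0 of them in the stroma and osteoblast gates, and they were kept except in an alternative. The fold and interval code was tested on simulated data. Python 3.11.15, numpy 2.4.6, scipy 1.17.1, pandas 2.3.3 and scanpy 1.11.5 were used.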

Additional observations from a re-analysis of the deposited data

Results flagged for a closer look

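Of the 12564 barcodes, 4541 had fewer than 1000 genes and entered no gate, and 4 of the 6 genes had UMIs in them above the 3 that a count of 0 allows. Csf1 had 826 UMIs there, of 1980 in the whole matrix, at 43.0 CPM (40.2 to 46.1), against 16.0 (15.1 to 16.9) in the kept barcodes. The 884 of these barcodes with at least 20 UMIs of S100a8 and S100a9, genes abundant in neutrophils, held 584 Csf1 UMIs, or 285.1 CPM (262 to 309), and the other 3657 held 242, or 14.1 CPM (12.4 to 16.0). In kept barcodes above the same S100 limit the level was 17.2 (15.6 to 19.1). That limit was chosen after the values had been seen. The median depth was 2150 UMIs in the 884 barcodes and 7190 in the kept ones, and the part of depth or of RNA quality in this difference was not tested.

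Csf1r had 154 UMIs below the gene limit (8.03 CPM), of which 91 lay in the 884 barcodes. Tnfrsf11b had 12 and Tnfrsf11a had 4, at 0.625 and 0.209 CPM. Tnfsf11 and Il34 had 0.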

How the results depend on the processing

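Of 74 values of the 8 ratios that answer the main comparisons, recomputed under alternatives, 63 moved by less than their counting interval, 10 moved beyond it and 1 changed direction. Of 63 values of 9 other ratios, 59 stayed within it, 3 moved and 1 changed direction. Tnfsf11 in stroma over osteoblasts lay between 3.97 and 5.93 under 10 alternatives.

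Splitting gates by their overlaps, an alternative added after the data had been seen, turned Tnfrsf11b in Col10a1/Ihh over Col2a1 chondrocytes from 3.75 to -0.095 and moved Csf1 in stroma over osteoblasts from 3.94 to 3.19. With the same weight for each cell, Tnfrsf11b was 3.24 in Col10a1/Ihh and 2.58 in Prg4/Cilp over Col2a1 chondrocytes, and Csf1r 1.15 in Acp5/Ctsk over Ccr2 cells. Thinned to 3000 UMIs, these 3 ratios were 3.21, 2.55 and 1.11, and Csf1 in stroma over osteoblasts was 3.30, or 4.73 with the gate limits doubled. Over cells in 1 gate only, Tnfrsf11b in Prg4/Cilp over Col2a1 chondrocytes was 3.02, and Csf1 in the same pair went from 0.85 to -0.25. The cause of the moves was not tested. No replicate could be left out, and Tnfsf11 in Col10a1/Ihh over Col2a1 chondrocytes gave no value (0 against 2 UMIs). Depth limits the rare genes most, since 3 UMIs amount to 13.5 CPM in the Cxcl12 stroma.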
